A study of Homo sapiens with 18 samples.

Results

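The 10 genes described here encode 4 NF-κB subunits (NFKB1, NFKB2, RELA and RELB), 3 proteins of the IκB family (NFKBIA, NFKBIE and NFKBIZ), and 3 genes that NF-κB is known to induce (TNFAIP3, BIRC3 and TNFAIP2). They were chosen by symbol, as the subunits and inducible feedback genes of the pathway, out of 58302 genes in the count table, and all 10 were matched by Ensembl identifier. Their RNA was measured by RNA-seq in U87MG, an established human glioblastoma cell line, in 2 control libraries of cells under normal growth conditions and 2 libraries of cells given Erastin at 10 μM for 72 h. Erastin blocks cystine import and is used to induce ferroptosis, a form of cell death driven by iron and lipid peroxidation. Both groups came from 1 cell line, so the values hold for this line only. The sample titles call the control cells U87-WT and name no added construct or vehicle for either group. All 10 genes passed the low-count filter, which kept 16751 genes.

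NF-κB dimers are held in the cytoplasm by IκB proteins and by the unprocessed precursors made from the NFKB1 and NFKB2 genes. In the canonical pathway, receptors for TNF, interleukins and microbial products activate the IKK complex, which marks IκBα for destruction and frees RELA with the processed NFKB1 product. In the non-canonical pathway the kinase encoded by MAP3K14 drives processing of the NFKB2 product, which acts with RELB. NF-κB then induces its own brakes, among them NFKBIA, NFKBIE and TNFAIP3, and in glioblastoma the pathway is known for its link to the mesenchymal state and to secreted chemokines.

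Because many of these genes are both parts and targets of the pathway, their promoters were read for the κB motif, the binding sequence of NF-κB dimers. RefSeq (GRCh38.p14) gave 13 promoters for 8 of the 10 genes, each from 250 bases before to 50 bases after a transcription start, and none for RELB and NFKBIE. The κB consensus, searched by name over its 10 bases on both strands with overlapping matches kept, was present in 8 of the 13 promoters, belonging to 6 genes (NFKB1, NFKB2, NFKBIA, NFKBIZ, TNFAIP3 and BIRC3), and in 5.91% of all 35116 promoters of this length. By gene, 7.09% of 27305 genes had a match. RELA and TNFAIP2 had none in these windows. Since induction by NF-κB was part of why the genes were grouped, the match count is a description only. The 5 promoters below belong to the pair of precursor genes that moved in opposite directions, to the 2 IκB genes with the highest levels, and to RELA. They are written 5′ to 3′ on the gene's strand, with κB matches in capitals.
NFKB1, chr4:102501109-102501408, plus strand: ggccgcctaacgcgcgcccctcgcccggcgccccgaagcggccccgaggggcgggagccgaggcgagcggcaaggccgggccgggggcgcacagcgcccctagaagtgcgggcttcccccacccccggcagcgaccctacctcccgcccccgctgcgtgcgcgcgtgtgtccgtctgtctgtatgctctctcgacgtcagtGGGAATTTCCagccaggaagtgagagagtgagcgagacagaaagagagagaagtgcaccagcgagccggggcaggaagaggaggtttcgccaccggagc
NFKB2, chr10:102394328-102394627, plus strand: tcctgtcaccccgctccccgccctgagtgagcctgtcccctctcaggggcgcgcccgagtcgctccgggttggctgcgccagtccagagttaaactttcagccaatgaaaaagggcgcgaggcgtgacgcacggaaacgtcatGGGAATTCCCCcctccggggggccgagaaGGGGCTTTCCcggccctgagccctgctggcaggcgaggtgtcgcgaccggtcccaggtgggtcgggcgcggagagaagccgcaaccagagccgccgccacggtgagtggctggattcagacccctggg
NFKBIA, chr14:35404700-35404999, minus strand: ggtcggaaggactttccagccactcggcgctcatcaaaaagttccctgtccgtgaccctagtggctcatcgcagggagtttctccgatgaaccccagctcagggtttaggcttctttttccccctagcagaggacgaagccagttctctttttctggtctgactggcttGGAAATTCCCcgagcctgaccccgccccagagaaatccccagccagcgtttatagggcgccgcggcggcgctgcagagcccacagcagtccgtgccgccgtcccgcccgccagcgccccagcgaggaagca
NFKBIZ, chr3:101827740-101828039, plus strand: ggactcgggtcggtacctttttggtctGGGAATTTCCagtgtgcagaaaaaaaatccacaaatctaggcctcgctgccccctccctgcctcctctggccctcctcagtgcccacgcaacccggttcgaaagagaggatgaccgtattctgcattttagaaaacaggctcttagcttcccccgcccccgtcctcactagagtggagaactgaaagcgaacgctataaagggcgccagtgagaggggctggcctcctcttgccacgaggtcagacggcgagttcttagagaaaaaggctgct
RELA, chr11:65662867-65663166, minus strand: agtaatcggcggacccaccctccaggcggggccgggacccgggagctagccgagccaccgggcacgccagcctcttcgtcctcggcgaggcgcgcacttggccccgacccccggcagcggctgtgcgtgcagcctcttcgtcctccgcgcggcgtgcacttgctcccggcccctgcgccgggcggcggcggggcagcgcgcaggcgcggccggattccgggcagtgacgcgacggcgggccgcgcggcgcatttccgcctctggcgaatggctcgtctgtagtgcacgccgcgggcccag
The NFKB1 and NFKBIZ promoters shown shared the word GGGAATTTCC, which began 49 bases before the start site in NFKB1 and 223 bases before it in NFKBIZ. The NFKB2 promoter shown held GGGAATTCCC, which began 107 bases before its start and overlapped a second match shifted by 1 base. It also held GGGGCTTTCC, which began 78 bases before the start. NFKB1, NFKB2, NFKBIZ and RELA have further promoters that are not shown. Those of NFKB1 and RELA held no match, and that of NFKBIZ held GGGGTTTCCC. For NFKB2, the upstream promoter held no match and the downstream promoter held GGGGCTTCCC and GGGACTTTCC. The NFKBIA match, GGAAATTCCC, began 81 bases before the start and lay on the opposite strand. Read on that strand it is GGGAATTTCC, the same word as in NFKB1 and NFKBIZ. A match shows only that these letters were in the window.

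The libraries held between 29412656 and 31513519 counts on genes, and composition factors lay between 0.971 and 1.02. The biological coefficient of variation over all tested genes was 10.3%. The labels number 2 replicates in each group without saying that they were separate cultures, so the p-values measure the spread between these libraries, which may be technical. Of the tested genes, 23.2% were higher and 23.7% lower in Erastin at an adjusted p under 0.05 (edgeR quasi-likelihood test, Benjamini-Hochberg over 16751 genes). A change that was in addition 2-fold or more was seen for 15.6%, of which 6.24% were higher and 9.34% lower as shares of all tested genes. With 2 libraries against 2, 36.7% of tested genes had both Erastin libraries above both controls and 36.9% had both below.

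The 10 genes differed in direction between Erastin and control. NFKB1, RELA and NFKBIZ rose, by 1.45-fold, 1.54-fold and 1.85-fold, and NFKB2 and TNFAIP2 fell to 0.641 and 0.654 of control. RELB, NFKBIA, NFKBIE, TNFAIP3 and BIRC3 did not pass the test. The 3 higher and 2 lower calls stand beside shares of 23.2% and 23.7% among all tested genes, so the calls were about as frequent among the members as in the background. No member passed both thresholds with edgeR or with DESeq2, and none had an unadjusted p under 0.05 with a 2-fold change, although 6 had an unadjusted p under 0.05. The median log2 fold change of the 10 genes was 0.13, against -0.0026 over all tested genes, and the median size of their change, regardless of sign, was 0.57 against 0.43.

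**Figure D1:**
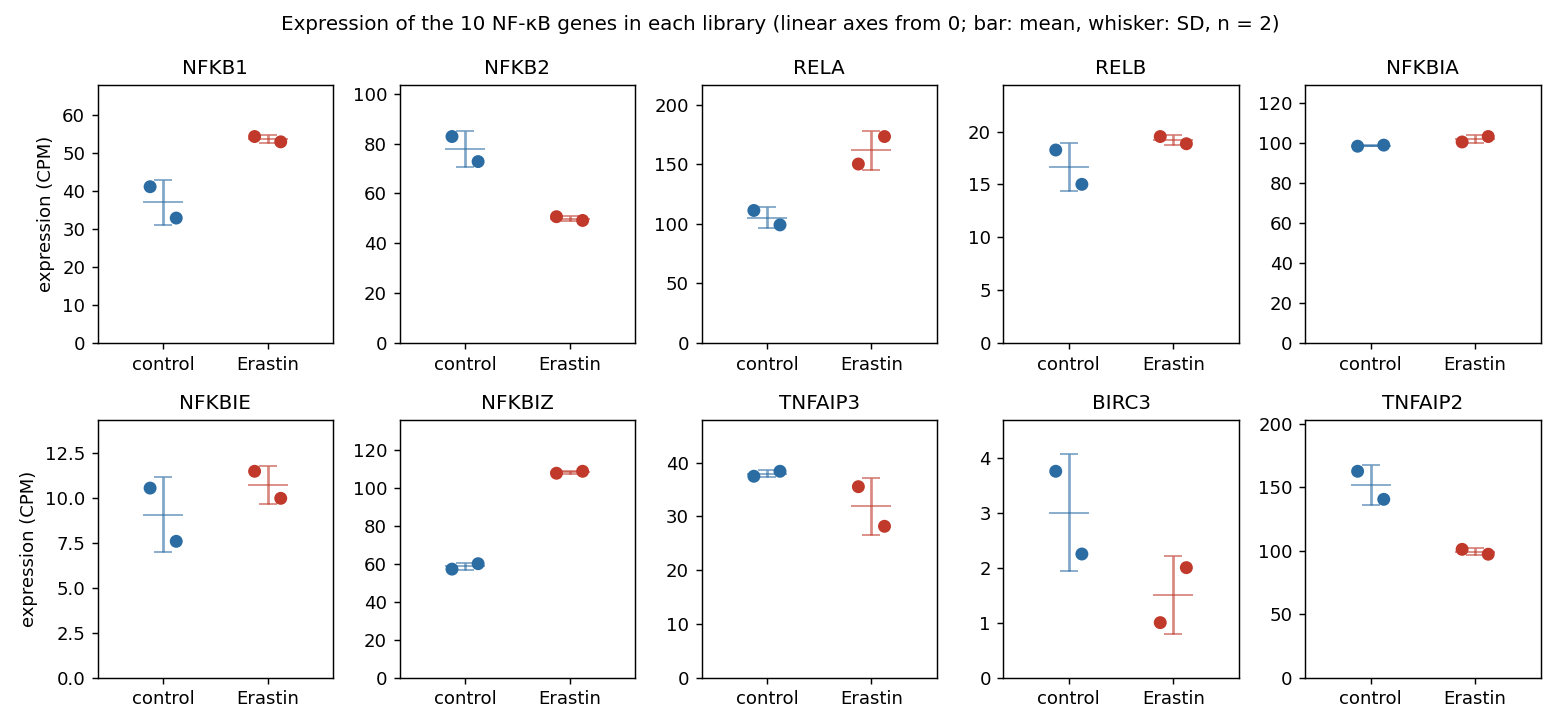
Expression in CPM (counts scaled to the TMM-adjusted library total, linear axes from 0) of each of the 10 genes in the 2 control (blue) and 2 Erastin (red) libraries, with horizontal bars for means and whiskers for SD. NFKBIZ lay at 57.2 and 60.1 CPM in control and at 108 and 109 CPM in Erastin libraries, while the NFKBIA points lay between 98.2 and 103 CPM in all 4.

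Levels of different genes were compared per length, as RPKM (reads scaled by the merged exon length of the gene and by the library total), with 2 libraries in each mean ± SD. In control cells NFKBIA, which encodes IκBα, the main inhibitor of RELA dimers, had the highest RPKM of the 10 genes, 41.5 ± 0.164. TNFAIP2 followed at 30.1 ± 3.11, then RELA at 19.2 ± 1.57 and NFKB2 at 17.4 ± 1.59. The ranges of RELA and NFKB2 overlapped between libraries. Within each control library RELA was the higher, at 20.3 against 18.5 and 18.1 against 16.2 RPKM, and this order was not tested. Next came NFKBIZ at 9.93 ± 0.344, TNFAIP3 at 7.51 ± 0.129, NFKB1 at 5.90 ± 0.931 and RELB at 5.48 ± 0.757. The NFKB1 and RELB ranges overlapped between libraries, while NFKB1 was the higher within each control library. NFKBIE stood at 3.52 ± 0.813 and BIRC3 was lowest at 0.400 ± 0.142. NFKBIA therefore exceeded BIRC3 by 104-fold per length in control cells.

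In Erastin cells NFKBIA was again highest at 42.9 ± 0.811 RPKM and BIRC3 lowest at 0.200 ± 0.0943. RELA moved ahead of TNFAIP2, at 29.6 ± 2.99 against 19.7 ± 0.540 RPKM, and NFKBIZ, at 18.3 ± 0.123, moved ahead of NFKB2, at 11.1 ± 0.238. NFKB1 stood at 8.56 ± 0.158, RELB at 6.32 ± 0.159, TNFAIP3 at 6.31 ± 1.03 and NFKBIE at 4.16 ± 0.413. The RELB and TNFAIP3 libraries overlapped. With the longest transcript as the length, RELA exceeded TNFAIP2 already in control cells by a narrow margin, and RELB exceeded TNFAIP3 and NFKB1 (7.36, 6.98 and 5.24 RPKM). In Erastin cells RELA was then the highest, at 50.8 RPKM against 39.7 for NFKBIA, and RELB exceeded NFKB1 (8.50 against 7.60 RPKM). These orders, the top place in Erastin cells among them, depend on the length used.

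NFKB1 (chromosome 4, 102501329 to 102617302, plus strand, GRCh38 as in the count table) encodes the precursor of the DNA-binding partner of RELA. It had 41.0 and 32.8 CPM in control libraries and 54.2 and 52.8 CPM in Erastin libraries. Both Erastin libraries lay above both controls, and the control libraries were further apart than the Erastin libraries. The log2 fold change was 0.54 (SE 0.11, adjusted p = 0.00156).

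NFKB2 (chromosome 10, 102394110 to 102402529, plus strand) encodes the precursor used in the non-canonical pathway, which restrains RELB until it is processed. Its control libraries had 82.9 and 72.8 CPM and its Erastin libraries 50.7 and 49.2 CPM, with no overlap. NFKB2 fell by 0.64 on the log2 scale (SE 0.08, adjusted p = 6.80e-05), opposite in direction to NFKB1. It was the sole subunit gene that passed the test in the lower direction.

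RELA (chromosome 11, 65653596 to 65663094, minus strand) encodes the subunit that activates transcription in the canonical pathway. It had 111 and 99.0 CPM in control libraries and 150 and 173 CPM in Erastin libraries. The groups did not overlap, and each Erastin library exceeded the higher control. The log2 fold change was 0.62 (SE 0.09, adjusted p = 9.80e-05), the highest of the 4 subunits.

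RELB (chromosome 19, 45001430 to 45038198, plus strand), the transcription-activating partner of the NFKB2 product, had 18.2 and 15.0 CPM in control and 19.5 and 18.8 CPM in Erastin libraries. The lower Erastin library was close to the higher control. The log2 fold change of 0.21 (SE 0.13, adjusted p = 0.225) did not pass, and its 95% interval ran from -0.08 to 0.50, which holds no change as well as a rise of 1.41-fold.

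The IκB genes did not move as a group. NFKBIA (chromosome 14, 35401511 to 35404749, minus strand) had 98.2 and 98.8 CPM in control and 100 and 103 CPM in Erastin libraries, the narrowest relative spread over the 4 libraries among the 10 genes. Its level in Erastin was 1.03 times control, with a 95% interval of 0.932 to 1.14 (adjusted p = 0.612). The 2-fold threshold lay far outside this interval. Of the tested genes, 5.93% had a smaller change in size than NFKBIA.

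NFKBIE (chromosome 6, 44258166 to 44265788, minus strand), which encodes IκBε, an inhibitor of RELA and REL dimers, had 10.6 and 7.60 CPM in control and 11.5 and 9.99 CPM in Erastin libraries. It was the one member whose groups overlapped. The log2 fold change was 0.24 (SE 0.19, adjusted p = 0.312), with a 95% interval of -0.16 to 0.65. Without control replicate 1 it was 0.50 with an adjusted p of 0.0388, so 1 control library decided whether it passed.

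NFKBIZ (chromosome 3, 101827991 to 101861022, plus strand) encodes IκBζ, a nuclear protein that binds NFKB1 dimers and is needed for a set of late inflammatory genes rather than holding dimers in the cytoplasm. It had 57.2 and 60.1 CPM in control and 108 and 109 CPM in Erastin libraries. The gap between groups was much wider than the spread within either. With a log2 fold change of 0.88 (SE 0.07, adjusted p = 1.22e-06) it had the lowest adjusted p of the 10 genes, and 75.8% of tested genes had a smaller change in size. Its ratio of 1.85 had a 95% interval of 1.66 to 2.06, which reaches the 2-fold threshold.

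The 3 remaining genes lay lower in both Erastin libraries than in both controls. TNFAIP2 (chromosome 14, 103123442 to 103137439, plus strand), a TNF-induced gene whose product takes part in forming membrane tubes between cells, had 163 and 140 CPM in control and 101 and 97.2 CPM in Erastin libraries. It fell by 0.61 on the log2 scale (SE 0.08, adjusted p = 6.54e-05). The gap between the groups was wider than the spread within either.

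TNFAIP3 (chromosome 6, 137867188 to 137883312, plus strand) encodes A20, a ubiquitin-editing enzyme that stops signalling from TNF receptors. It had 37.5 and 38.4 CPM in control and 35.5 and 28.2 CPM in Erastin libraries. The Erastin libraries differed more from each other than the nearer one did from control. The log2 fold change was -0.25 (SE 0.12, adjusted p = 0.0978) and did not pass. Without Erastin replicate 1, the library nearer to control, it was -0.43 with an adjusted p of 0.0227, and without Erastin replicate 2 it was -0.09. Of its exon bases, 95 (1.88%) are shared with WAKMAR2 on the opposite strand, which had 27 to 39 counts per library, and unstranded counting cannot tell the 2 apart there. No other member shared exon bases with another gene.

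BIRC3 (chromosome 11, 102317450 to 102339403, plus strand) encodes cIAP2, a ubiquitin ligase that relays TNF receptor signals and, with its close relative, keeps the non-canonical kinase low. It was the least abundant member, with 115 and 70 counts in control and 30 and 63 in Erastin libraries, or 3.76, 2.25, 1.00 and 2.01 CPM. One control and one Erastin library lay close together. The log2 fold change was -0.99 (SE 0.40), the furthest from 0 of the 10 genes, with an adjusted p of 0.0582, and its 95% interval ran from -1.86 to -0.13. It passed both thresholds without control replicate 2 (-1.32, adjusted p = 0.00271), without Erastin replicate 2 (-1.58, adjusted p = 0.00791) and with replicate number as a block (-1.01, adjusted p = 0.0436). Without control replicate 1 or Erastin replicate 1 it was -0.58 in each fit (adjusted p = 0.332 and 0.278), so whether BIRC3 passed rested on which library was kept.

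**Figure D2:**
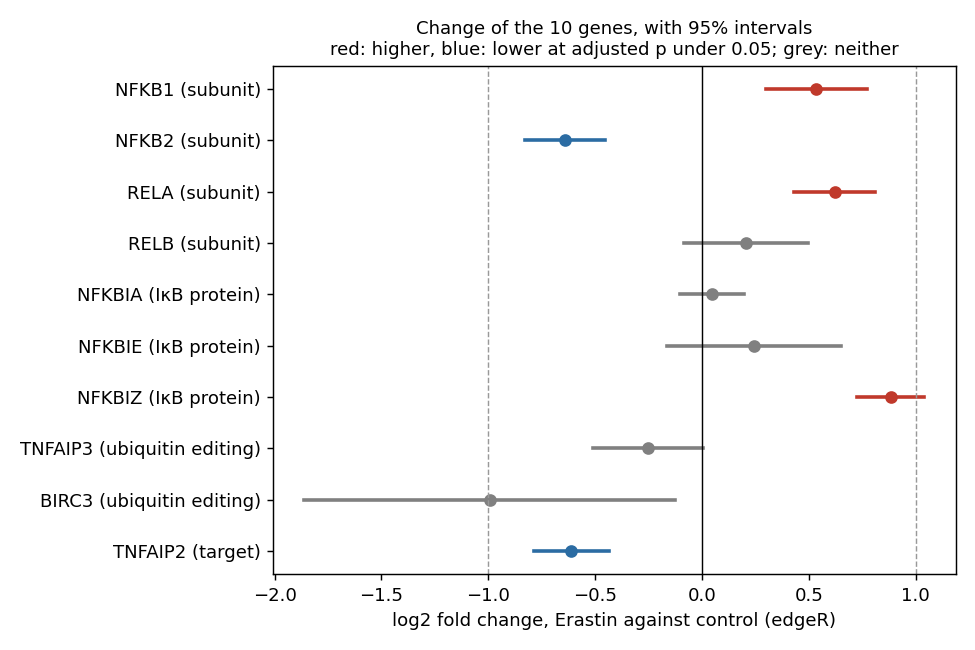
Log2 fold change of each of the 10 genes (x axis, Erastin against control, edgeR) with its 95% interval, coloured red where higher and blue where lower at an adjusted p under 0.05 and grey otherwise, with dashed lines at a 2-fold change. Only the interval of NFKBIZ among the 5 coloured genes crosses a dashed line, and BIRC3 has the widest interval, from -1.86 to -0.13.

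By library order, 5 genes had both Erastin libraries above both controls in CPM (NFKB1, RELA, RELB, NFKBIA and NFKBIZ) and 4 had both below (NFKB2, TNFAIP3, BIRC3 and TNFAIP2), against 36.7% and 36.9% of all tested genes. By role, 2 of 4 subunits rose and 1 fell, 1 of 3 IκB genes rose, neither of the ubiquitin-editing genes passed, and TNFAIP2 fell. These counts and those by motif that follow stand beside calls for 23.2% (higher) and 23.7% (lower) of all tested genes. The 6 genes with a κB match in a listed promoter included 2 that rose (NFKB1 and NFKBIZ), 1 that fell (NFKB2) and 3 that did not pass, and the 2 genes with promoters but no match included 1 that rose (RELA) and 1 that fell (TNFAIP2).

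Ratios of 2 genes within a library do not depend on how libraries are scaled, and 4 of them, picked after the values had been seen and so given with no test, describe the shift. The level of NFKB1 per length was 0.355 and 0.323 of that of NFKB2 in control libraries and 0.767 and 0.770 in Erastin libraries. The ratio of the 2 precursor genes differed by 1.18 on the log2 scale. This gap follows from the rise of NFKB1 and the fall of NFKB2 and is not a separate result. NFKBIZ stood at 0.234 and 0.244 of NFKBIA in control and at 0.432 and 0.424 in Erastin libraries. NFKBIA, the inhibitor gene, stood at 2.04 and 2.30 times RELA in control and at 1.54 and 1.37 times in Erastin libraries. RELA stood at 3.38 and 3.67 times RELB in control and at 4.27 and 5.11 times in Erastin libraries. In each of the 4 ratios the groups did not overlap, which is a description only because the pairs were picked with the values known. Among single tested genes, 36.7% were higher and 36.9% lower in Erastin without overlap. The size of a ratio depends on the lengths used, while its relative difference between the groups does not. With the longest transcript, NFKBIA had 38.5 RPKM against 33.0 for RELA in control cells but 39.7 against 50.8 in Erastin cells, so that NFKBIA no longer exceeded RELA there. On the same lengths NFKBIZ had 14.9 RPKM in control and 27.6 in Erastin cells, closer to NFKBIA than on the merged exon length. By contrast, NFKB1 stood at 0.323 and 0.289 of RELA in control and at 0.316 and 0.266 in Erastin libraries, which overlapped, so the ratio between the genes of the canonical dimer was not separated by group.

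**Figure D3:**
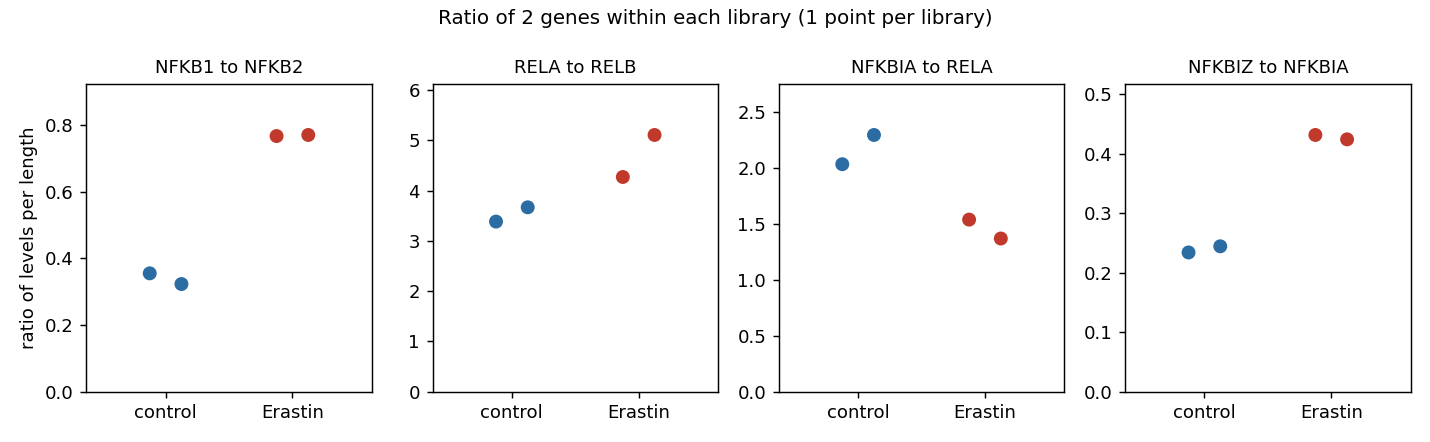
Ratio of the levels per length of 2 genes within each library (linear y axes from 0, no unit), 1 point per control (blue) or Erastin (red) library. NFKB1 to NFKB2 lay at 0.355 and 0.323 in control and at 0.767 and 0.770 in Erastin libraries. The 4 ratios were picked after the values had been seen, and none overlapped between groups.

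The other genes of the pathway were read from lists chosen by role, with earlier results of these data known. Of the Rel and IκB family members outside the 10, REL had a log2 fold change of 0.00 (adjusted p = 0.997) and NFKBID of -0.30 (adjusted p = 0.270), while BCL3, a nuclear IκB protein that binds the products of NFKB1 and NFKB2, fell by 0.69 (adjusted p = 7.70e-05). NFKBIB had 0 to 2 counts and was not tested. Its neighbours HNRNPL and ACTN4, genes that nearly all cells use, had at most 2 counts as well, so its low counts were not read as lack of expression. Of 12 receptors tested, 3 rose and 4 fell, near the background shares of 23.2% and 23.7%. The receptor genes TNFRSF10B, which binds the death ligand TRAIL, and TNFRSF12A, which binds TWEAK, rose by 1.61 and 1.42 (adjusted p = 3.37e-09 and 2.18e-08), and TNFRSF1B and TLR2 fell by 1.51 and 2.52 (adjusted p = 2.32e-07 and 0.00783). TLR2 rested on 33 and 26 counts in control and 6 and 4 in Erastin libraries, and without control replicate 1 its adjusted p was 0.0898, and 2 receptors rather than 4 fell. TNFRSF1A, the main TNF receptor, had a log2 fold change of -0.01 (adjusted p = 0.921), and it is named for its role after its value was seen.

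Of 30 adaptors and kinases, 12 rose and 6 fell, beside the same background of 23.2% and 23.7%; their median log2 fold change was 0.17. RIPK1, the kinase scaffold of the TNF receptor complex, and XIAP, a ubiquitin ligase that blocks caspases, rose by 1.09 and 1.04 (adjusted p = 7.16e-06 and 1.43e-07). MAP3K14, the kinase of the non-canonical pathway, had 17.2 CPM in control and 7.77 CPM in Erastin cells and fell by 1.14 (adjusted p = 3.87e-05), and the adaptor gene TRAF5 went from 12.6 to 5.77 CPM (adjusted p = 1.78e-04). MAP3K14 and NFKB2, whose product this kinase pathway processes, were thus both lower, while RELB did not pass. Among the 3 IKK genes, named for their role after their values were seen, IKBKG rose by 0.60 (adjusted p = 0.00379) and CHUK by 0.22 (adjusted p = 0.0466), and IKBKB was at -0.20 (adjusted p = 0.0633).

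The negative regulators tested numbered 14. Among them 7 rose and 1 fell, against 23.2% and 23.7% of all tested genes, and the median log2 fold change was 0.33. CYLD, which removes the ubiquitin chains that A20 also acts on, rose by 1.18 (adjusted p = 8.79e-08), while TNFAIP3 itself did not pass. SIGIRR, an inhibitory receptor of the interleukin-1 family, fell by 1.02 (adjusted p = 0.0136), and without control replicate 1 it was -0.58 (adjusted p = 0.185). The number that fell was 0 without control replicate 1, 3 without control replicate 2 and 2 without Erastin replicate 1.

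Of 26 inducible targets listed, 19 were tested, and 11 rose and 3 fell, and the median log2 fold change was 0.78 against 0.13 for the 10 genes and -0.0026 for all tested genes. The background shares were 23.2% and 23.7%. Of these, 8 rose at least 2-fold and 2 fell as much, against 6.24% and 9.34% of all tested genes. Since this list was chosen with earlier results of these data known, its counts and median are a description only. CXCL8, which encodes the neutrophil chemokine interleukin-8, went from 109 to 686 CPM (log2 fold change 2.65, adjusted p = 1.98e-10), and CXCL2 rose by 1.68 (adjusted p = 3.80e-07). CXCL1 had 2 and 0 counts in control and 10 and 10 in Erastin libraries, a ratio of 10.1 with a counting interval of 2.44 to 88.7, and its adjusted p of 0.0481 was 0.308 without control replicate 2, 0.0708 without control replicate 1 and 0.165 with DESeq2. The other 5 that rose at least 2-fold, named after their values were seen, were CXCL3, IL6, LIF, CFLAR and PTGS2, with log2 fold changes between 1.01 and 1.27. CCL2, a monocyte chemokine, and CSF2, a myeloid growth factor, fell by 2.11 and 1.62 (adjusted p = 2.11e-04 and 0.0148). For CSF2 the adjusted p was 0.0667 without control replicate 1, 0.0521 without Erastin replicate 1 and 0.0547 with DESeq2. Chemokine targets therefore differed in direction among themselves, as the 10 genes did. TNF and LTB had 0 counts in every library, but 94.8% and 98% of their 31-base words also lay on alternate scaffolds of the reference used here, and their neighbour DDX39B had 3 to 6 counts, so these zeros were not read as lack of expression. The same held for 97.7% of the words of IER3, whose counts may be too low. For the 10 genes the share was at most 1.01%.

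**Figure D4:**
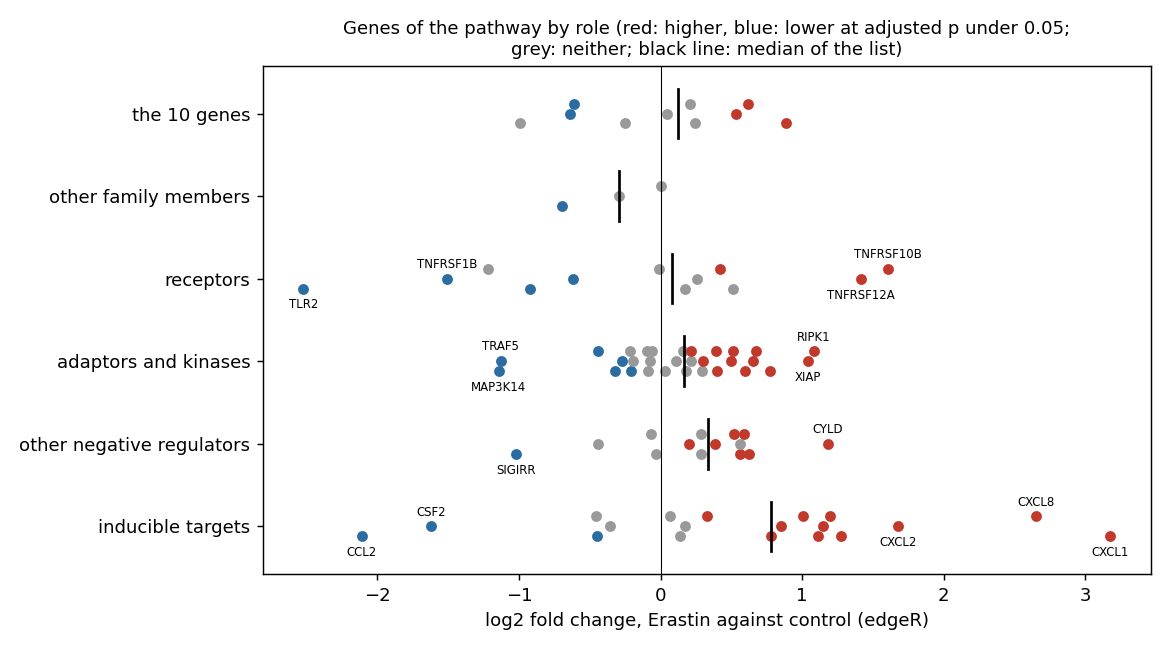
Log2 fold changes (x axis, Erastin against control, edgeR) of the tested genes of each pathway list, 1 point per gene, red where higher and blue where lower at an adjusted p under 0.05 and grey otherwise, with a black line at each list's median and names for genes chosen by the fixed rule. The medians were 0.13 for the 10 genes and 0.78 for the inducible targets, whose points reach from -2.11 to 3.18.

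The cells were checked against markers. VIM, CD44, FN1 and TNC, genes of mesenchymal glioma lines, were abundant, whereas the astrocyte markers GFAP and S100B had 41 to 81 and 0 to 2 counts and SOX2 had 0 to 6. NES, a neural stem-cell marker, had 36.5 CPM in control and 2.98 CPM in Erastin cells and fell by 3.62 on the log2 scale (adjusted p = 3.97e-08). The summed level of the 9 glial and mesenchymal markers was 11431 and 11760 CPM in control and 3887 and 4148 CPM in Erastin libraries. Most of this drop came from FN1, which went from 5192 to 496 CPM. TNC (2443 to 755 CPM), VIM (2515 to 1664 CPM) and CD44 (1405 to 1094 CPM) were lower as well. Of the 7 markers of this list that were tested, 5 fell and 0 rose. Of 12 leukocyte, endothelial and neuron markers, AIF1 and CD3E were at 0 in every library and PTPRC had at most 1 count, although 92.6% and 73.5% of the words of AIF1 and PTPRC lay on alternate scaffolds. Others were detected: the myeloid gene CSF1R had 8.36 CPM in control and 5.27 CPM in Erastin cells, the endothelial gene PECAM1 had 5.28 and 1.04 CPM, and VWF had 4 and 4 counts in control and 17 and 32 in Erastin libraries. Further markers of the same cell types had few counts per library. The myeloid genes CD14 and ITGAM had 1 to 12 and 0 to 15, the endothelial gene CDH5 0 to 1 and the neuron gene RBFOX3 2 to 9. Of the 4 markers in this list that were tested, 3 fell and VWF rose (adjusted p = 0.0125). The summed level of the list was 31.1 and 32.9 CPM in control and 17.0 and 16.8 CPM in Erastin libraries, with SYT1 the highest at 17.7 and 8.98 CPM. Both marker sums were thus lower in the Erastin libraries, and their part in the results above was not tested. In bulk RNA, fewer cells that express a gene and less of its RNA per cell cannot be told apart.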

How the data were processed

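Total RNA of U87MG cells, 2 control and 2 Erastin libraries, was sequenced by the authors. HISAT2 2.1.0 and DESeq2 1.18.1 are named in the submitters' processing notes, and the deposited table of raw read counts per gene was written, by its header, with featureCounts 2.0.3 and the Ensembl release 90 annotation of GRCh38, while the notes give version 2.0.4 and the study's methods name htseq-count. Counting ignored strand, left out reads on several places or genes, and may have counted both reads of a pair. No column was treated as estimated counts in the fit: the values the authors deposited were whole throughout, and rounding changed 0 of them.

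Counts were fitted in edgeR 4.0.16 (R 4.3.3) with filterByExpr (minimum count 10), TMM factors and the quasi-likelihood test without a block, over 4 libraries, and p-values were adjusted by Benjamini-Hochberg over 16751 genes. Intervals are 95%. Thresholds, an adjusted p of 0.05 and a log2 fold change of 1 in size, followed the study. CPM used TMM-scaled totals, and RPKM the exon length in the table. The code of the fit was run on simulated counts with known changes. Fewer genes were changed there than were called here, so that run checks the code only. No molecular identifiers are named in the sources used here, so PCR copies may be counted as separate reads and counting intervals cover counting error only. An exact permutation test of 2 libraries against 2 cannot go below p = 0.333 and was not used for calls.

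The members and lists were chosen with earlier results of these data known. All members were named, and of each pathway list up to 3 genes with the largest rise and up to 3 with the largest fall past both thresholds, together with markers and genes overlapping a member's exons. SOD2 was not matched by symbol and has no value here. The value of 1 listed marker gene is not reported here. Symbols came from the reference tables for 57532 of 58302 genes. Alternatives were DESeq2 1.42.0, RLE factors, library totals, other count filters, a replicate block, halved counts, a length from the longest transcript, and leaving out each library, where the lone library of a group was assumed to vary like the other group. Chromatin data of the series were not analysed here.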

Additional observations from a re-analysis of the deposited data

How the results depend on the processing

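All 10 members kept their direction under the 7 alternatives with all libraries and the 4 fits without 1 library, and the 5 that passed at an adjusted p under 0.05 passed in each. No member that had missed this threshold passed under DESeq2, RLE factors, library totals or halved counts, but BIRC3 did without a low-count filter (adjusted p = 0.0120) and when each library had to hold 10 counts or more (0.0478). The replicate block rested on shared numbers only, since same-numbered libraries deviated together with a correlation of 0.0293 and the labels name no pairing. With the block 1 member (BIRC3, adjusted p = 0.0436) rather than 0 was lower past both thresholds, and 2 negative regulators rather than 1 were lower, as also without a low-count filter, while no other count of calls moved by over 1.5 times. Leaving out 1 library gave 0 to 1 members lower past both thresholds, 2 to 3 receptors lower and 0 to 3 negative regulators lower. CXCL1 did not pass without a low-count filter (adjusted p = 0.105) or with the block (0.0578). The span of levels per length in control cells was 88.0-fold with the longest transcript. The causes of these differences were not tested. BIRC3, CXCL1, TLR2 and CSF2, whose calls changed with a setting or a library, had at most 115 counts per library. Changed calls were not confined to such genes. Leaving out 1 library also changed the calls of TNFAIP3 (885 to 1193 counts), NFKBIE (236 to 344) and SIGIRR (76 to 199). With halved counts the calls of BIRC3, TLR2 and CSF2 did not change. Halving keeps the ratios between libraries up to rounding and adds no counting error, so the part of low counts was not tested. CXCL1 did not reach the low-count filter with halved counts and has no value there.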
